A study of Mus musculus with 2 samples.

Results

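Oligodendrocytes are the myelin-forming glia of the central nervous system, and 34 genes that mark their lineage were described here, of 55536 genes in the deposited tables. The genes were chosen by their known roles in the lineage, with earlier results of these data known. They were ordered by stage: 4 precursor genes, 6 genes of newly formed oligodendrocytes, 7 transcription factors and 17 genes of mature, myelin-forming cells. The samples were a single group of 2 hippocampus libraries, biological replicates 1 and 2, from male B6CASTF1/J mice aged 14 days. The strain name stands for crosses between the C57BL/6J and CAST/EiJ strains. The labels list 3 males beside each library and do not say whether their RNA was pooled. Each library was stranded, was reduced in ribosomal RNA, started from 300 ng of total RNA and carried ERCC spike-ins, which are synthetic RNAs added in known amounts. No treatment or mutation was given, so the levels of the genes, their ratios and their replicate differences are reported, and no conditions were compared. In whole tissue, fewer cells of a type and less RNA per cell cannot be told apart.

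Oligodendrocyte precursors divide in response to platelet-derived growth factor and spread through the developing brain. Those that leave the cell cycle pass through a short-lived newly formed state, and then wrap axons in myelin, a sheath built from stacked membrane rich in lipid and in a small number of abundant proteins. A set of transcription factors, among them OLIG2, SOX10 and MYRF, runs this programme, and in the rodent forebrain myelin is laid down mostly after birth.

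Replicate 1 held 29144892 gene counts and replicate 2 held 31755578. All 34 members had a mean count of at least 10, the lowest being 19.5 for Hapln2, and 33 had at least 1 TPM (a transcript level divided by length and scaled to a fixed total per library) in both libraries. Hapln2 had 0.81 and 0.58 TPM. Spike-ins took 0.516% and 0.484% of all counts in replicates 1 and 2. Schwann cells, the myelinating cells of peripheral nerve, share Mag and Sox10 with oligodendrocytes. Foxd3, a neural crest factor of the Schwann cell list, had 1 count in replicate 1 and 0 counts in replicate 2, for which the upper limit is 3 counts, a level of 0.0945 CPM (counts scaled to the library total). The summed level of the 8 Schwann cell genes was 31.6 and 32.0 TPM, mostly from Drp2 and Pmp22, which brain cells also express.

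The 4 precursor genes lay between 11.7 and 35.9 TPM (means of the 2 libraries). Pdgfra (chromosome 5, 75152292 to 75198215, mm10), the receptor through which platelet-derived growth factor drives precursor division, had 33.98 and 37.84 TPM in replicates 1 and 2. Cspg4, which encodes the NG2 proteoglycan of the precursor surface, had 15.3 and 14.7 TPM. C1ql1, a secreted protein of the C1q family, had 15.1 and 19.3 TPM, and Lhfpl3, a membrane protein gene, had 11.35 and 12.03 TPM. Pdgfra exceeded Cspg4 by a log2 TPM ratio of 1.26 ± 0.149 (SD, n = 2), or 2.39-fold. A pair of members was called different where its log2 ratio had 1 sign in both libraries and a mean over 0.5 and over 2 SD, which is a rule on replicate spread and gives no p-value. Fibroblasts also express Pdgfra and mural cells Cspg4. Markers of fibroblasts summed to 109 and 119 TPM in replicates 1 and 2 and those of mural cells to 96.4 and 101 TPM, and their part in these levels was not tested.

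The 6 genes of newly formed oligodendrocytes lay between 6.22 and 46.1 TPM. Bcas1, a marker of early myelinating cells, had 51.4 and 40.8 TPM in replicates 1 and 2. Gpr17, a G protein-coupled receptor that restrains maturation in mice, was close beside it at 50.5 and 40.8 TPM. Both were higher in replicate 1. Enpp6, a choline-specific phosphodiesterase gene, had 12.2 and 9.77 TPM, which put Gpr17 4.15-fold above it (log2 ratio 2.05 ± 0.0123) with nearly the same ratio in each library. Itpr2, an inositol trisphosphate receptor gene that astrocytes also express, had 14.7 and 11.9 TPM. Nkx2-2, a homeobox factor of differentiating cells, had 6.72 and 5.72 TPM. The noncoding RNA gene 9630013A20Rik, annotated as antisense, had 14.9 and 8.32 TPM. It overlaps Pcdh17 on the opposite strand, which had 3901 and 4646 counts, and Gpr17 overlaps Lims2 in the same way. The libraries are stranded per the labels, but the strand setting of the counting was not found in the labels or headers. Bcas1 and Pdgfra were not called different (log2 ratio 0.35 ± 0.345).

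The 7 transcription factors had a median of 20.3 TPM in replicate 1 and 20.1 TPM in replicate 2, the most even of the stage medians. In both libraries this median was the value of Olig2 alone, and 5 of the 7 factors were higher in replicate 1 by the test described below. Olig1 (chromosome 16, 91269772 to 91271933), a basic helix-loop-helix factor of the lineage, led with 87.0 and 83.3 TPM. Its neighbour Olig2, needed to specify the lineage, had 20.3 and 20.1 TPM, and Olig1 stood 4.21-fold above it (log2 ratio 2.07 ± 0.0335). Of the SoxE factors, Sox10, an activator of myelin genes, had 22.7 and 20.2 TPM and Sox8 had 34.01 and 34.89 TPM. Sox10 over Sox8 was −0.69 ± 0.141 on the log2 scale and passed the rule, but from the second set of transcript tables it was −0.44 and did not. Sox8 overlaps the antisense gene 2810468N07Rik, which had 422 and 441 counts. Myrf, the membrane-bound factor required for myelin gene expression, had 13.1 and 8.53 TPM, and Zfp488, a zinc finger factor that promotes differentiation, had 4.45 and 3.14 TPM. Nkx6-2, a homeobox factor of differentiated oligodendrocytes, was lowest with 2.57 and 1.22 TPM (85 and 38 counts). It overlaps Inpp5a on the opposite strand, which had 907 and 933 counts. Nkx6-2 was below Nkx2-2 by a log2 ratio of −1.81 ± 0.596, a call lost in the second set of tables (−1.66 ± 0.833).

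Mature genes spanned the widest range, with means between 0.695 TPM for Hapln2 and 126 TPM for Cnp. Cnp, a cyclic nucleotide phosphodiesterase of the cytoplasmic channels of myelin, had 149 and 103 TPM in replicates 1 and 2. Mobp, a basic protein of compact myelin, had 155 and 78.1 TPM. Mag, an adhesion molecule on the myelin membrane facing the axon, had 133 and 69.1 TPM. By the mean of the libraries these were the 3 highest members, and they took 36.2% and 29.0% of the summed member TPM. Their order was not fixed: Mobp was above Cnp in replicate 1 and below it in replicate 2 (log2 ratio −0.17 ± 0.322), and in replicate 2 Olig1, with 83.3 TPM, was above Mobp and Mag. Cldn11, which forms the tight junctions between myelin layers, had 83.5 and 44.7 TPM, and Tspan2, a tetraspanin gene, had 58.5 and 34.2 TPM. Mog (chromosome 17, 37010743 to 37023398), a protein of the outermost myelin surface, had 27.8 and 11.9 TPM, so Mag stood 5.27-fold above it (log2 ratio 2.40 ± 0.197). Mal, a raft-associated proteolipid of myelin traffic, had 24.1 and 9.62 TPM. Trf, the iron carrier transferrin, had 26.8 and 14.8 TPM, and Apod, a lipocalin, had 20.7 and 12.9 TPM. Gjc3, a connexin gene, had 10.7 and 5.96 TPM. Low in both libraries were Opalin, a membrane glycoprotein gene, with 3.56 and 1.51 TPM, and Ermn, a cytoskeletal protein gene of late myelination, with 3.62 and 1.82 TPM. This pair was not called different (log2 ratio −0.15 ± 0.173). In these 12 genes replicate 1 was the higher library.

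The other 5 mature members were not called different between the libraries. Qdpr, which regenerates tetrahydrobiopterin, had 44.2 and 45.2 TPM, and Car2, a carbonic anhydrase, had 35.96 and 37.96 TPM. Gpr37, a receptor expressed in oligodendrocytes and in some neurons, had 15.5 and 16.4 TPM. It was below Gpr17, a receptor of the earlier stage, by a log2 ratio of −1.51 ± 0.280. Evi2a, a small membrane protein gene that lies on the opposite strand of Nf1, had 3.11 and 3.07 TPM, while Nf1 had 7760 and 8461 counts. Hapln2, a link protein of the matrix at nodes of Ranvier, had 24 and 15 counts, and its ratio could not be told from 1 at this depth.

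**Figure D1:**
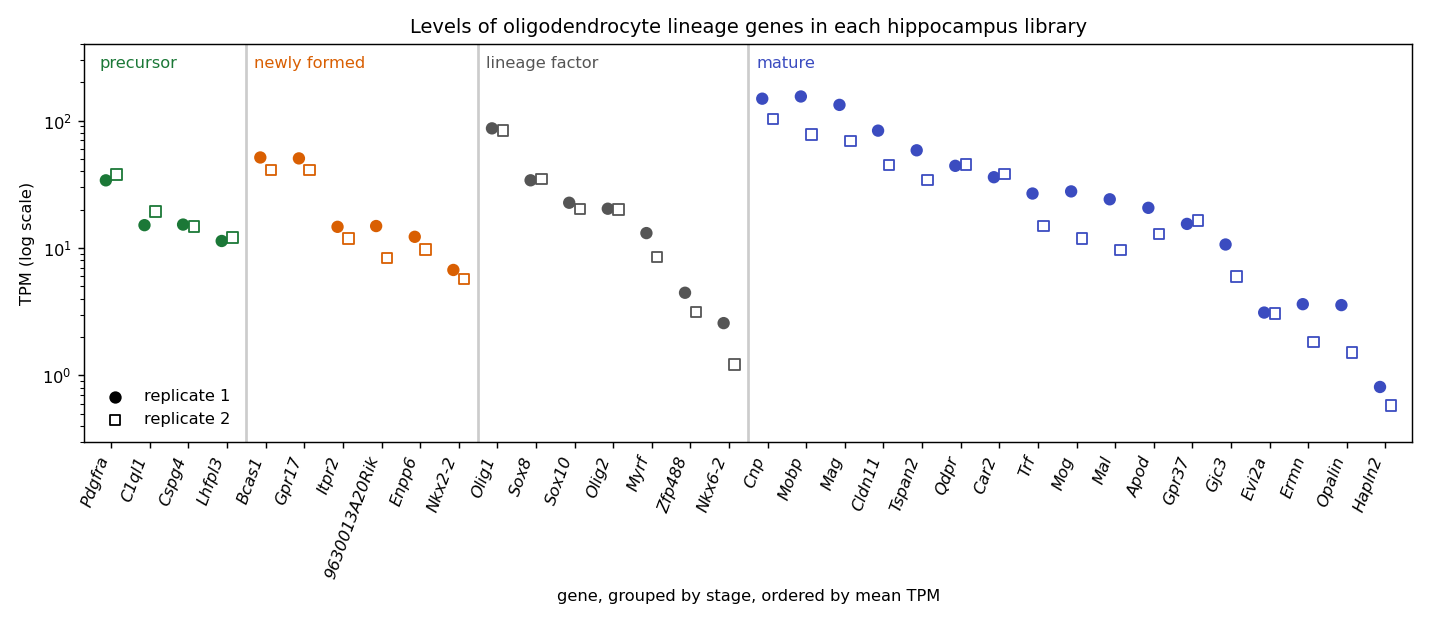
Level of each of the 34 members in TPM (vertical log axis), with replicate 1 as filled circles and replicate 2 as open squares, and genes grouped by stage along the horizontal axis. Mature genes run from 0.695 TPM (Hapln2) to 126 TPM (Cnp) on average, and in most of them replicate 1 lies higher, whereas in 3 of the 4 precursor genes replicate 2 lies higher.

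Summed over members, mature genes had 795 and 491 TPM, transcription factors 184 and 171.5 TPM, newly formed genes 150.4 and 117 TPM and precursor genes 75.7 and 83.8 TPM in replicates 1 and 2. Mature genes thus held 66.0% and 56.8% of the member TPM and precursor genes 6.28% and 9.71%. The ratio of summed mature to summed precursor TPM was 10.5 in replicate 1 and 5.85 in replicate 2 (log2 2.97 ± 0.597, SD, n = 2). These sums run over 17 mature and 4 precursor genes, so the ratio and the shares also reflect the length of the lists. With 2 libraries an exact two-sided sign-flip test cannot go below a p of 0.5, and none was run. By the median member, by contrast, mature genes (26.8 and 14.8 TPM) did not stand apart from precursor genes (15.2 and 17.0 TPM), since replicate 2 gave the reverse order. The mature sum was raised by its larger number of genes and by a few high ones. Of the 16 pairs set side by side, 12 were called different, and Mog was below Bcas1 (log2 ratio −1.33 ± 0.630) but was not called different from Pdgfra (−0.98 ± 0.974).

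Differences between the replicates beyond counting noise were tested next. Each gene's rounded expected counts were compared with an exact two-sided binomial test at library sizes scaled by TMM (the trimmed mean of M-values), and p-values were adjusted by Benjamini-Hochberg over all 18322 genes that averaged 10 counts or more. The test compares these 2 libraries and not conditions, and it has no replicate check. Log2 ratios are replicate 1 over replicate 2, on counts, so they can differ slightly from ratios of TPM, which also use each library's transcript lengths. Of all genes tested, 22.7% were called, 10.3% higher in replicate 1 and 12.5% higher in replicate 2. Among the 34 members, 23 were called, 22 of them higher in replicate 1 and 1 higher in replicate 2. Most members are well counted, but Hapln2, Nkx6-2, Evi2a, Opalin, Nkx2-2 and Ermn averaged under 200 counts. Of the 10903 genes with a mean count of at least 200, 30.6% were called and 11.6% were higher in replicate 1. The median log2 ratio was 0.56 over members and 0.00 over all genes tested, of which 95% lay between −0.63 and 0.98.

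The calls are given by stage. Of the 4 precursor genes, none was higher in replicate 1, and the median log2 ratio was −0.04. C1ql1 was lower in replicate 1 with a log2 ratio of −0.30 (95% interval for counting error −0.49 to −0.12, adjusted p = 0.0077 by the exact binomial test), while Pdgfra was at −0.03, Lhfpl3 at −0.06 and Cspg4 at 0.08. Of the 6 newly formed genes, 5 were higher in replicate 1, with a median of 0.35. The values were 0.74 for 9630013A20Rik, 0.56 for Enpp6, 0.36 for Gpr17, 0.34 for Bcas1 and 0.22 for Itpr2, and Nkx2-2, at 0.26, did not pass (adjusted p = 0.24).

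Of the 7 factors, 5 were higher in replicate 1, with a median of 0.34. Nkx6-2 had a log2 ratio of 1.29, Myrf of 0.64, Zfp488 of 0.55, Sox10 of 0.34 and Olig1 of 0.11. Olig2 and Sox8, each at 0.06, did not pass. Of the 17 mature genes, 12 were higher in replicate 1, with a median of 0.80.

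At a size of at least 2-fold with the same test, 1.86% of all genes were called, 1.37% higher in replicate 1 and 0.486% higher in replicate 2. The 6 members past it were all higher in replicate 1. Mal had 1304 and 554 counts and a log2 ratio of 1.37 (adjusted p = 1.5e-83 by the exact binomial test), and Mog had 901 and 411 counts and a ratio of 1.27 (adjusted p = 3.5e-51). Nkx6-2, with far fewer counts, was at 1.29 (adjusted p = 2.7e-05), and Opalin was at 1.24, Mobp at 1.18 and Ermn at 1.04 on the log2 scale. Mag, at 0.99, and Cldn11, at 0.95, lay just under that size. The other mature genes that passed the counting test had log2 ratios between 0.60 for Cnp and 0.87 for Apod. Car2, Qdpr and Gpr37 were at −0.07, −0.02 and 0.02. Evi2a, at 0.22, and Hapln2, at 0.80 with an interval from −0.17 to 1.85, did not pass.

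**Figure D2:**
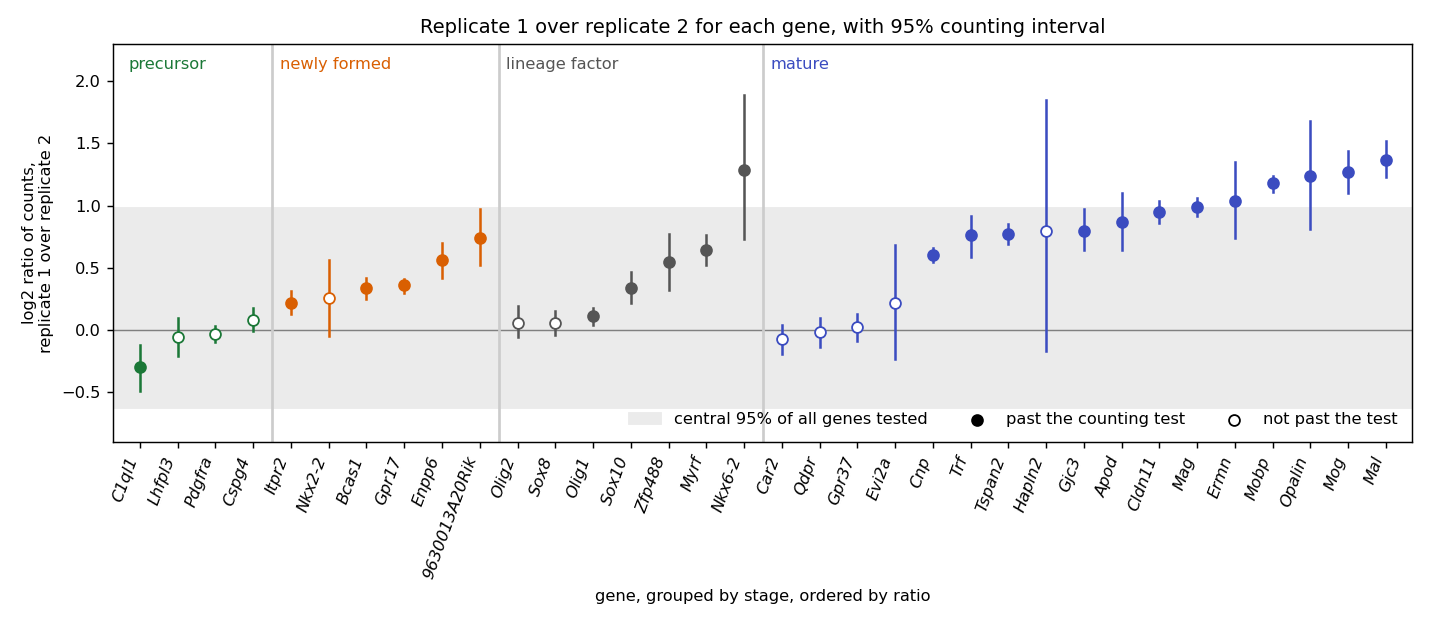
Log2 ratio of replicate 1 over replicate 2 for each member, by stage, with 95% intervals that cover counting error only; filled and open points mark members that did and did not pass the counting test, and the grey band holds the central 95% of all genes tested. Precursor genes lie between −0.30 and 0.08, and the 12 mature genes that passed lie at 0.60 or higher, with Car2, Qdpr and Gpr37 near 0.

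The number of calls depended on how much spread between replicates was allowed for, while the log2 ratios stayed as given. With a biological coefficient of variation of 0.1 assumed in edgeR's exact test, 11 members were called, all higher in replicate 1, and 173 genes in all, or 0.944% of those tested. The 11 were Nkx6-2 among the factors and Mobp, Mog, Mag, Cldn11, Opalin, Ermn, Mal, Tspan2, Gjc3 and Apod among the mature genes. Scaling by the spike-in total moved the median of all genes to −0.11, which lowers every ratio alike. Under that scaling Itpr2 (0.11) and Olig1 (0.00) no longer passed, and Pdgfra (−0.14) and Car2 (−0.18) passed as lower in replicate 1.

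Lists of other genes of the pathway had medians in the same order as the stages. Like the members, they were chosen with earlier results of these data known. Beside their counts, 10.3% of all genes tested were higher in replicate 1 and 12.5% were lower. Of 25 further mature genes, 23 had enough counts for the test, and 20 of them were higher in replicate 1, 1 was lower and 2 did not pass, with a median log2 ratio of 0.70. Mbp, the basic protein of compact myelin, had 813 and 439 TPM (log2 ratio 0.90). Sirt2, a deacetylase abundant in myelin, had 141 and 111 TPM (0.34), and Tppp, a tubulin-binding protein gene, had 87.2 and 87.4 TPM (0.10). The largest ratio was that of Gjb1, a connexin gene, at 1.28 (69 and 31 counts), and Aspa, which breaks down N-acetylaspartate, was at 1.04 (66 and 35 counts). The gene that was lower was Cntn2, an axonal and glial adhesion molecule, at −0.15. It was picked out after its value was seen.

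Of 8 further genes of newly formed cells, 4 were higher in replicate 1 and 4 did not pass, with a median of 0.20. Tcf7l2, a transcription factor, had 18.2 and 7.30 TPM (1.33), Tmem163, a zinc transporter gene, was at 0.61 and Tns3, a tensin gene, at 0.31. Fyn, a kinase that signals in myelination, had 109 and 113 TPM (−0.04). Of 10 further precursor genes, 3 were higher, 3 were lower and 4 did not pass, with a median of −0.01. Ptprz1, a receptor phosphatase gene also expressed by astrocytes, had 93.7 and 109 TPM (−0.22), Susd5 was at 0.65, Neu4, a sialidase gene, at 0.51 and Xylt1 at −0.28.

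Of 24 upstream regulators, which are ligands, receptors and factors that act on the lineage but are expressed widely, 2 were higher, 9 were lower and 13 did not pass, with a median of −0.09. The shares over all genes tested were 10.3% higher and 12.5% lower. Erbb3, a neuregulin receptor gene that oligodendrocytes express, had 2.71 and 1.48 TPM (0.92). Rxrg, a retinoid receptor gene, was at −0.55 and Thra, a thyroid hormone receptor gene, had 530 and 609 TPM (−0.14).

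Some markers of other cells and regions differed between the same libraries, as did 22.7% of all genes tested (10.3% higher in replicate 1 and 12.5% lower). The 5 genes listed for thalamic neurons, a neighbouring region, summed to 49.2 and 27.7 TPM, and all 4 that were tested were higher in replicate 1 (median log2 ratio 0.89). They were Tcf7l2, which also stands among the newly formed genes above, Tnnt1 at 2.73 (57 and 9 counts), Lef1 at 0.45 and Prkcd at 0.43, while Gbx2 had 2 and 0 counts. Markers of choroid plexus, a secretory tissue within the ventricles, summed to 93.2 and 50.2 TPM. Of the 6 tested, 4 were higher in replicate 1, among them Ttr, a thyroxine carrier, with 85.9 and 45.8 TPM (0.95) and Otx2 with 32 and 8 counts (2.07). Globin and other red blood cell genes summed to 731.5 and 561 TPM, and all 5 were higher in replicate 1 (median 0.51).

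The medians of the remaining lists were closer to 0. Astrocyte genes summed to 2230 and 2257 TPM with a median ratio of 0.05, 5 higher, 3 lower and 2 that did not pass. Microglial genes were at −0.12 (0 higher, 4 lower and 4 that did not pass) and genes of excitatory neurons at −0.07 (0 higher, 3 lower and 2 that did not pass). Endothelial genes were at −0.16 (2 higher, 3 lower), genes of fibroblasts at 0.05 (2 higher, 1 lower), of mural cells at −0.04 (0 higher, 2 lower), of ependymal cells at 0.09 (none called of 3 tested) and of Schwann cells at 0.08 (none called of 4 tested). Thalamic, choroid plexus and red blood cell markers were thus higher in the same library as the mature oligodendrocyte genes, and their part in that difference was not tested.

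**Figure D3:**
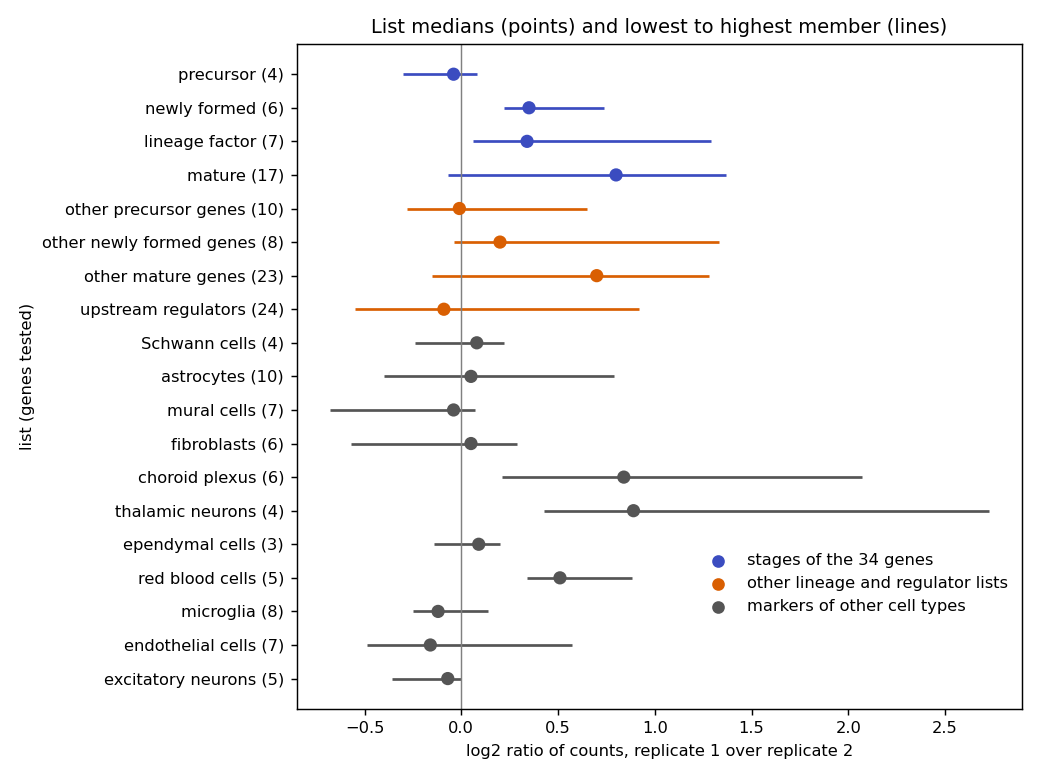
Median log2 ratio of replicate 1 over replicate 2 (points) and the range from the lowest to the highest tested gene (lines) for the 4 member stages, the 4 lists of other pathway genes and the lists of markers of other cells, with the number of genes tested in brackets. The medians of mature members (0.80), further mature genes (0.70), thalamic (0.89), choroid plexus (0.84) and red blood cell genes (0.51) lie at 0.51 or higher. The medians of the precursor lists, the regulators and the other cell types lie between −0.16 and 0.09.

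Promoter sequences are shown for a few members as a description. RefSeq's promoter table (GRCm38.p6, the assembly of mm10) held a window for 25 members, 14 of them mature. In 11 of the 25 the start site and the bases after it matched those of the member's leading transcript, so the other windows may not be the promoter of the main transcript. The 250 bases before the start site were searched on both strands for short cores known for factors of the lineage, and a match is a description of letters and not a bound site. The core of MYRF was spelled CTGGCAC or CTGGTAC. It stood in 4 of the 25 windows, or 16%, against 5.93% of 32851 windows of all genes, and the 4 were Mog, Mag, Cnp and Hapln2. These 4 were among the 14 mature windows, and the other mature windows had none. Cores of SOX factors (ACAAAG or AACAAT) stood in 8 of 25 windows, 6 of them mature and 6 times in that of Mobp alone, or 32% against 24%. The E-box of OLIG2 (CAGCTG, the same on both strands) stood in 3, or 12% against 13% of all windows, and a core of NKX2-2 (CACTTAA) in 1, that of Apod, or 4% against 2.1%. None of these cores lies within another. The windows of Mog, Mag and Cnp are printed 5′ to 3′ on the strand of the gene as far as the annotated gene body. The MYRF core, or its reverse complement, is in capitals. The window of the precursor gene Pdgfra, without a match, stands beside them. It ends at 75152250, before the annotated gene start at 75152292, so its start site is not that of the leading transcript. All these windows were picked after the matches were seen.
Mog, chr17:37023399-37023648, minus strand: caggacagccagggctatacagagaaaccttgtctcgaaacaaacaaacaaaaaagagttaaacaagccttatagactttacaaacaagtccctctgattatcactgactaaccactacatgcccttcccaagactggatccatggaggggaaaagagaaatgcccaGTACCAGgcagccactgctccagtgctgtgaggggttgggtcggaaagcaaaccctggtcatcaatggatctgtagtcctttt
Mag, chr7:30914874-30915113, minus strand: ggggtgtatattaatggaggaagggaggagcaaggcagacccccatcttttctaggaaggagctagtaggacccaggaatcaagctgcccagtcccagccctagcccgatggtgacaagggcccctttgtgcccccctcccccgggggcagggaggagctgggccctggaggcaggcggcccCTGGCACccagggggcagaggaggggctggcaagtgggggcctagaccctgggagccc
Cnp, chr11:100574689-100574903, plus strand: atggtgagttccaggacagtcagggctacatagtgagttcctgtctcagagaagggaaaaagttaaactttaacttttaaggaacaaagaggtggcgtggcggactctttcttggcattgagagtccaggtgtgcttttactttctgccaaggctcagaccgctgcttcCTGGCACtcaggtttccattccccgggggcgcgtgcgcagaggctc
Pdgfra, chr5:75152001-75152250, plus strand: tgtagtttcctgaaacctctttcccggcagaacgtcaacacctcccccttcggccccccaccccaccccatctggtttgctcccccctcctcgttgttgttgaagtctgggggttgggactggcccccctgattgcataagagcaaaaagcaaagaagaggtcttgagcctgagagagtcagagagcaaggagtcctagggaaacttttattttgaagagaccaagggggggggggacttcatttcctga
The 3 genes with a core shown here had log2 ratios of 1.27 (Mog), 0.99 (Mag) and 0.60 (Cnp), and Hapln2, the other one, had 0.80 without passing the test. Of the 6 members past 2-fold, Mog alone had a MYRF core in this window, and Mal, Nkx6-2, Opalin, Mobp and Ermn had none. Pdgfra was at −0.03. A part of these cores in the replicate ratios was not tested.

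The sum for a gene hides its transcripts, and Mag is the best known case in the lineage. Its RNA is spliced to a long and a short form of the protein, which differ in the cytoplasmic tail. An alternative exon of 45 bases with an early stop codon gives the short tail. It is printed on the strand of the gene, with the codons up to and including the stop in capitals.
Mag alternative exon, chr7:30900352-30900396, minus strand: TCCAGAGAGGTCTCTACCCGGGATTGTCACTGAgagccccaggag
The transcript that skips it, Mag-207, encodes the long form of 627 amino acids and had 36.8 and 19.7 TPM in replicates 1 and 2. The transcripts of the short form of 582 amino acids, Mag-201 and Mag-203, had 61.4 and 31.9 TPM. Over these transcripts, the long form was below the short form in both libraries, by a log2 ratio of −0.71 ± 0.0324 (SD, n = 2). Other coding transcripts of Mag were counted in neither form. The largest, Mag-205, had 25.1 and 13.9 TPM in replicates 1 and 2, and 0 TPM in both libraries of the second set. Which form it belongs to was not tested, and adding it to the long form could change this order. In the second set of tables the long form had 62.0 and 34.8 TPM and the short form 87.4 and 42.1 TPM, with a log2 ratio of −0.39 ± 0.156. The direction was the same, and both forms had their higher value in replicate 1. The models do not end alike: the last exon of Mag-203 has 523 bases and that of Mag-207 168, and the effect of this on the shares was not tested.

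Across the members, 7 had 1 annotated transcript and 27 had several. Of these 27, 20 had a transcript with over 50% of the gene's TPM, 22 had a protein-coding leader, and 25 had the same leader in both libraries. The exceptions were Nkx6-2 and Hapln2, both with few counts. In 22 of the 27 the leader was also the same in the kallisto-layout tables, the second of the 2 deposited sets, and the first set had the layout of RSEM. The 5 that changed were Bcas1, Cnp, Opalin, Hapln2 and Apod. Mobp was led in both sets by Mobp-204, annotated as a target of nonsense-mediated decay, with 44.6% ± 2.22 in the RSEM layout and 43.1% ± 3.60 in the kallisto layout. Its coding transcripts Mobp-202 and Mobp-206 followed with 18.1% ± 2.62 and 11.9% ± 2.16 in the RSEM layout.

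For Cnp, the coding transcript Cnp-201 held 60.1% ± 1.82 in the RSEM layout, whereas the noncoding Cnp-204 held 58.0% ± 2.60 in the kallisto layout. Cnp also overlaps Dnajc7 on the opposite strand. Bcas1 was led by Bcas1-208 with 47.6% ± 4.12 in the first set and by Bcas1-201 with 59.3% ± 0.714 in the second, and both encode protein. The disagreement was widest for Apod, where the retained-intron transcript Apod-201 held 43.0% ± 5.23 in the RSEM layout and 0% in the kallisto layout, in which the coding Apod-202 held 93.5% ± 1.88. Gpr37 had its 2 coding transcripts at 71.8% ± 6.48 and 28.2% in the first set, and at 50.01% and 49.99% in the second. Of the protein-coding members, 10 had over 25% of their TPM in the RSEM layout, in both libraries, in transcripts of a class other than protein-coding. That class includes decay targets with an annotated reading frame, such as Mobp-204 with 81 codons. In the kallisto layout the share was 0% for Apod and 15.9% and 16.5% for Nkx2-2, but rose to 31.4% and 44.5% for Enpp6. Total RNA holds unspliced RNA too, whose part in this was not tested.

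**Figure D4:**
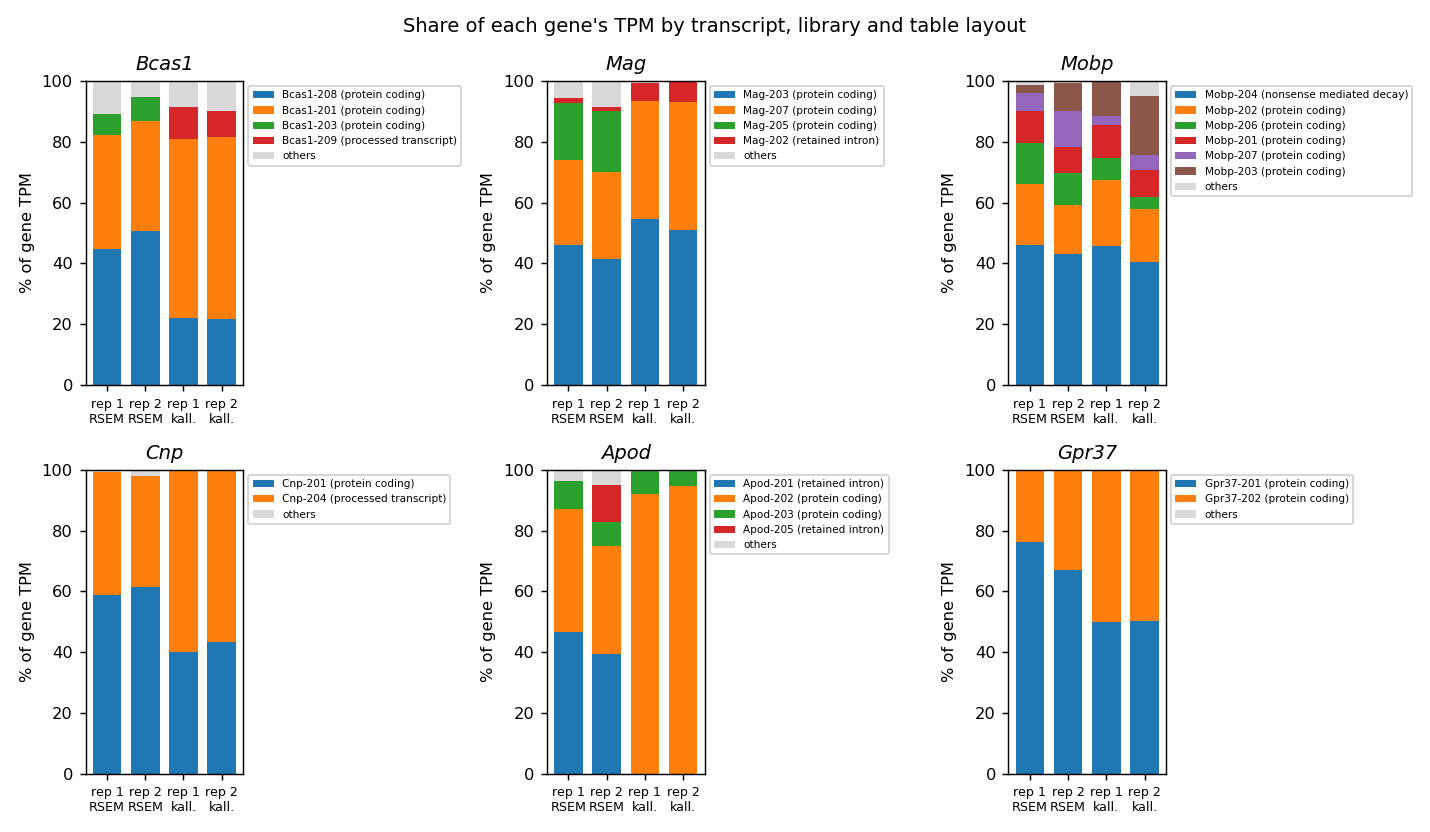
Share of each gene's TPM held by its transcripts, in percent, for Bcas1, Mag, Mobp, Cnp, Apod and Gpr37, with 4 bars a gene: replicates 1 and 2 in the RSEM layout and replicates 1 and 2 in the kallisto layout (kall.); transcripts that stay small are summed as others. Bars of the same layout resemble each other, and those of Cnp, Bcas1 and Apod change leader between layouts.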

How the data were processed

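Total RNA was sequenced in 2 hippocampus libraries of 1 group. Per the file headers, the deposited gene tables hold expected counts (estimated reads per gene, not normalised), TPM, posterior mean counts and the posterior standard deviation of each count, which is used here as a score of how uncertainly reads were assigned. The deposited transcript tables in the layout of RSEM give TPM and the percent of a gene's TPM per transcript, and those in the layout of kallisto give estimated counts and TPM. Per the labels and deposited notes, reads were assigned to mm10 with GENCODE M21 gene models. Which aligner and which quantifier versions were used is not given in the sources. Of the members, 1, Trf, had a posterior standard deviation over 1% of its count (4.25% and 5.14%). Trf overlaps Gm20425 on the same strand, which had 149.58 and 153.13 counts in replicates 1 and 2.

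Entries for 97 spike-ins and 26248 that carry only a number were left out of gene totals. The numbered entries held 2.7e-05% and 9.4e-06% of the counts. Expected counts were rounded for the exact binomial test, with TMM scaling (edgeR 4.0.16, limma 3.58.1, R 4.3.3), a minimum mean count of 10, a prior count of 0.5 and a threshold of 0.05 after Benjamini-Hochberg adjustment across all genes. The test was checked on simulated counts that held counting noise only, so the check does not cover spread between replicates. Alternatives were DESeq2 1.42.0 size factors, the spike-in total, other filters, other count columns and an edgeR exact test. Python 3.11.15, numpy 2.4.6, scipy 1.17.1, pandas 2.3.3 and matplotlib 3.10.9 were used. P-values and intervals cover counting error between these libraries only. Sequences came from RefSeq's promoter table and the GENCODE M21 transcripts. Promoters of C1ql1, Gpr17, Bcas1, Olig1, Sox10, Myrf, Car2, Evi2a and Trf were not analysed here.

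The members and lists were chosen with earlier results of these data known. All 34 members are named. Of the other lists, the text draws on genes past the test with the largest ratios (up to 3), those with the highest TPM (up to 4) and those with 0 counts in a library, and 2 of these genes are not reported here.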

Additional observations from a re-analysis of the deposited data

How the results depend on the processing

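The count of 23 members differing between replicates was 22 or 23 under DESeq2 size factors, the spike-in total, no filter, a mean count of at least 50 (33 members tested), kallisto-layout counts and posterior mean counts, and 11 with the edgeR test and an assumed coefficient of variation of 0.1. The share of all genes called was 22.7%, and over these settings it was 23.9%, 35.6%, 13.6%, 28.3%, 23.1%, 22.4% and 0.944% in that order. C1ql1, at −0.17, did not pass in kallisto-layout counts. Of the members, 11 were called under every setting run, 9 under none and 14 under some, and no called ratio changed sign, with Olig1 at 0.00 under the spike-in total. The 2-fold count of 6 lay between 5 and 8, while the share of all genes past that size lay between 0.683% and 2.12%. The count of 8 came from kallisto-layout counts, with the share at 2.12%. Kallisto-layout TPM gave medians of 21.9, 19.9, 30.2 and 30.7 TPM for precursor, newly formed, factor and mature genes, and TPM rescaled over protein-coding nuclear genes 36.02, 28.04, 45.4 and 45.1 TPM, since abundant noncoding RNAs then leave the total. Leaving out a replicate gave medians between 15.2 and 17.0 (precursor), 10.8 and 14.8 (newly formed), 20.1 and 20.3 (factors) and 14.8 and 26.8 TPM (mature), a log2 ratio of summed mature to precursor TPM between 2.55 and 3.39, 13 pairs called in either case instead of 12, and 27 to 30 members with a transcript over 50% instead of 27. That log2 ratio was 3.11 in the kallisto layout. The pairs called numbered 9 in the kallisto layout and 10 with a log2 limit of 1. The contrast between the replicates cannot be run with a replicate left out. No paired analysis was possible because the samples form a single group. Genes with few counts, such as Hapln2 and Nkx6-2, limit what this depth shows.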

Other observations

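Zfp488 was the member whose level depended most on which deposited table was read, and it was picked after its values were seen. It has 1 annotated transcript. Its TPM in the kallisto layout was 3.62-fold that in the gene table, where the median over 13140 protein-coding genes with a mean TPM of at least 1 was 1.57-fold and 95% of them lay under 2.31-fold. Myrf over Zfp488, a log2 ratio of 1.5 in the gene table, was 0.36 ± 0.0362 in the kallisto layout. Zfp488 was higher in replicate 1 in both.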
